A study of Saccharomyces cerevisiae with 16 samples.

Results

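The amino acid permease family analysed here comprised 10 genes of budding yeast, listed by identifier, of the 6717 genes in the count table. They were AGP1 (YCL025C), GNP1 (YDR508C), BAP2 (YBR068C), BAP3 (YDR046C), TAT1 (YBR069C), TAT2 (YOL020W), GAP1 (YKR039W), HIP1 (YGR191W), DIP5 (YPL265W) and LYP1 (YNL268W). The list has no threshold. The members were chosen by identifier with the measured expression differences of these libraries, that of AGP1 among them, already in view. The p-values below therefore come from a fit over all genes and describe the members. They are not independent evidence that these genes are special.

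RNA was sequenced from 2 libraries in each of 8 groups, 16 libraries in all. Grande yeast were S96, a MATa lys5 strain with working mitochondria (called normal in the labels), and petite yeast were derived from S96 with ethidium bromide and lack a functional mitochondrial genome. All groups therefore share the S96 lys5 background, and the sources used here do not say whether the petite strain was 1 isolate. Each strain was grown in YPD, a rich medium, and in YM, a minimal medium that received lysine. Each culture was divided, and 1 portion was kept untreated while the other received 0.055% (v:v) of 4-methylcyclohexanemethanol (MCHM), a coal-cleaning solvent. The labels give 2.5 h of further growth, while the study's text gives a shorter exposure. Treated and untreated libraries thus share a culture, whereas strains and media were compared between cultures.

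Amino acid permeases are plasma membrane proteins that carry amino acids into the cell. In budding yeast their genes are under separate controls. External amino acids are sensed by the SPS complex at the plasma membrane (Ssy1, Ptr3 and Ssy5), which releases the transcription factors Stp1 and Stp2 and so induces AGP1, GNP1, BAP2, BAP3, TAT1, TAT2 and DIP5. GAP1, the general amino acid permease, and other genes for poor nitrogen sources are instead held down by nitrogen catabolite repression while good nitrogen sources last, through GATA factors that activate (Gln3, Gat1) or repress (Dal80, Gzf3). Broad carriers among the members are Agp1 and Gap1. Gnp1 carries glutamine and other neutral amino acids, Bap2 and Bap3 carry branched-chain amino acids, Tat1 and Tat2 carry tyrosine and tryptophan, and Hip1, Dip5 and Lyp1 carry histidine, the acidic amino acids and lysine.

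A library held 2015485 to 5694566 counts (median 3662481), of which the 10 members together took 0.26% to 1.25%. All 10 members passed the filter on low counts, as did 5856 genes in all, and the lowest count of a member in any library was 16. The 2 libraries of a group differed by far more than counting error (chi-square per degree of freedom 23.8 to 64.3), so none was a copy of another. Mitochondrially encoded genes had 0 counts in all 8 petite libraries, but at most 8 summed counts in a grande library and 0 in 3 of the 8 grande libraries, so they did not check the strain labels. A CPM value, the count scaled to library size with TMM factors, is a share of a library. Fewer transcripts per cell and more of other transcripts cannot be told apart. Values of a group are given below with the lower culture number first, and the columns did not say which replicate number of the labels each library had.

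The members lie on 8 chromosomes of the R64 assembly. BAP2 (chrII:373861-375690) and TAT1 (chrII:376574-378433) are neighbours on the minus strand with 883 bases between them. TAT1 overlaps the annotated antisense RNA TBRT on the plus strand, so in these unstranded libraries reads of TAT1 and TBRT cannot be told apart. The other 9 members overlap no annotated gene. Coding sequences were most alike between BAP2 and BAP3 (69.3% identical bases) and between AGP1 and GNP1 (69.1%), and the longest identical stretch of any pair was 47 bases, between AGP1 and GNP1. No pair shared a stretch of 50 bases. How reads that match several genes were counted is not given in the sources used here.

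The 500 bases before each start codon were searched on both strands for core motifs of the controls named above and of Gcn4, the activator of amino acid synthesis genes. The GATA motif GATAAG occurs at least once in 22.8% of 6000 such windows and at least 2 times in 3.63%, while GAP1 has 4 matches and AGP1 has 2. The Stp1 motif CGGCTC occurs in 6.63% of the windows and at least 2 times in 0.233%, while BAP3 has 2 matches and BAP2 has 1. The other members have neither of these 2 motifs in this window. The Gcn4 motif TGACTC, in 12.7% of windows, has 2 matches at HIP1 and 1 each at AGP1 and BAP2. GNP1, TAT1, TAT2, DIP5 and LYP1 have none of the 3 motifs. Only exact matches within this window were searched, so a missing match does not show that a control element is absent. A match describes the letters and is not a binding site by itself. To show the letters where members held them, the GATAAG matches of GAP1 and AGP1 and the CGGCTC matches of BAP3 and BAP2 are printed from the R64 sequence with 12 bases on each side, 5′ to 3′ on the strand that reads the motif, with the motif in capitals.
GAP1, chrXI:514582-514611, same strand as the gene: ccatttccttttGATAAGgggtcgttggtg
GAP1, chrXI:514708-514737, same strand: gatttggtaactGATAAGattgttaaatgt
GAP1, chrXI:514758-514787, opposite strand: gttgctccagaaGATAAGctaatcggacgt
GAP1, chrXI:514809-514838, same strand: taaattaaacatGATAAGcgcatagttggg
AGP1, chrIII:78331-78360, same strand: catcgagtcataGATAAGcaggttgcagta
AGP1, chrIII:78155-78184, same strand: caaatcaatcctGATAAGacggctaagatg
BAP3, chrIV:550965-550994, same strand: tagccgtgcatgCGGCTCcgcgaaaagagc
BAP3, chrIV:550920-550949, opposite strand: tttcgttgatcgCGGCTCgaagttcaggta
BAP2, chrII:376078-376107, same strand: tgccgcttctcaCGGCTCatattttgtggg

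The makeup of the permease transcripts differed between the groups. Compared per kilobase of coding length, BAP2 and TAT1 were the most abundant members in untreated YPD, at 317 ± 38 and 296 ± 99 CPM per kilobase in grande yeast and 366 ± 19 and 261 ± 88 in petite yeast (mean ± SD, n = 2). GAP1 was the least abundant member there, at 17.5 ± 0.9 and 17.7 ± 6.1 CPM per kilobase, or 0.79% to 1.24% of the sum of the 10 members in the 4 libraries. In untreated YM, GAP1 was the most abundant member, at 1657 ± 990 and 4145 ± 1063 CPM per kilobase, or 60.4% to 76.6% of that sum. With MCHM in YM, the share of GAP1 was 62.5% and 55.1% in petite yeast but 5.90% and 33.6% in grande yeast, where AGP1 took 46.5% and 17.7%. The 2 libraries of that last group stood far apart.

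**Figure D1:**
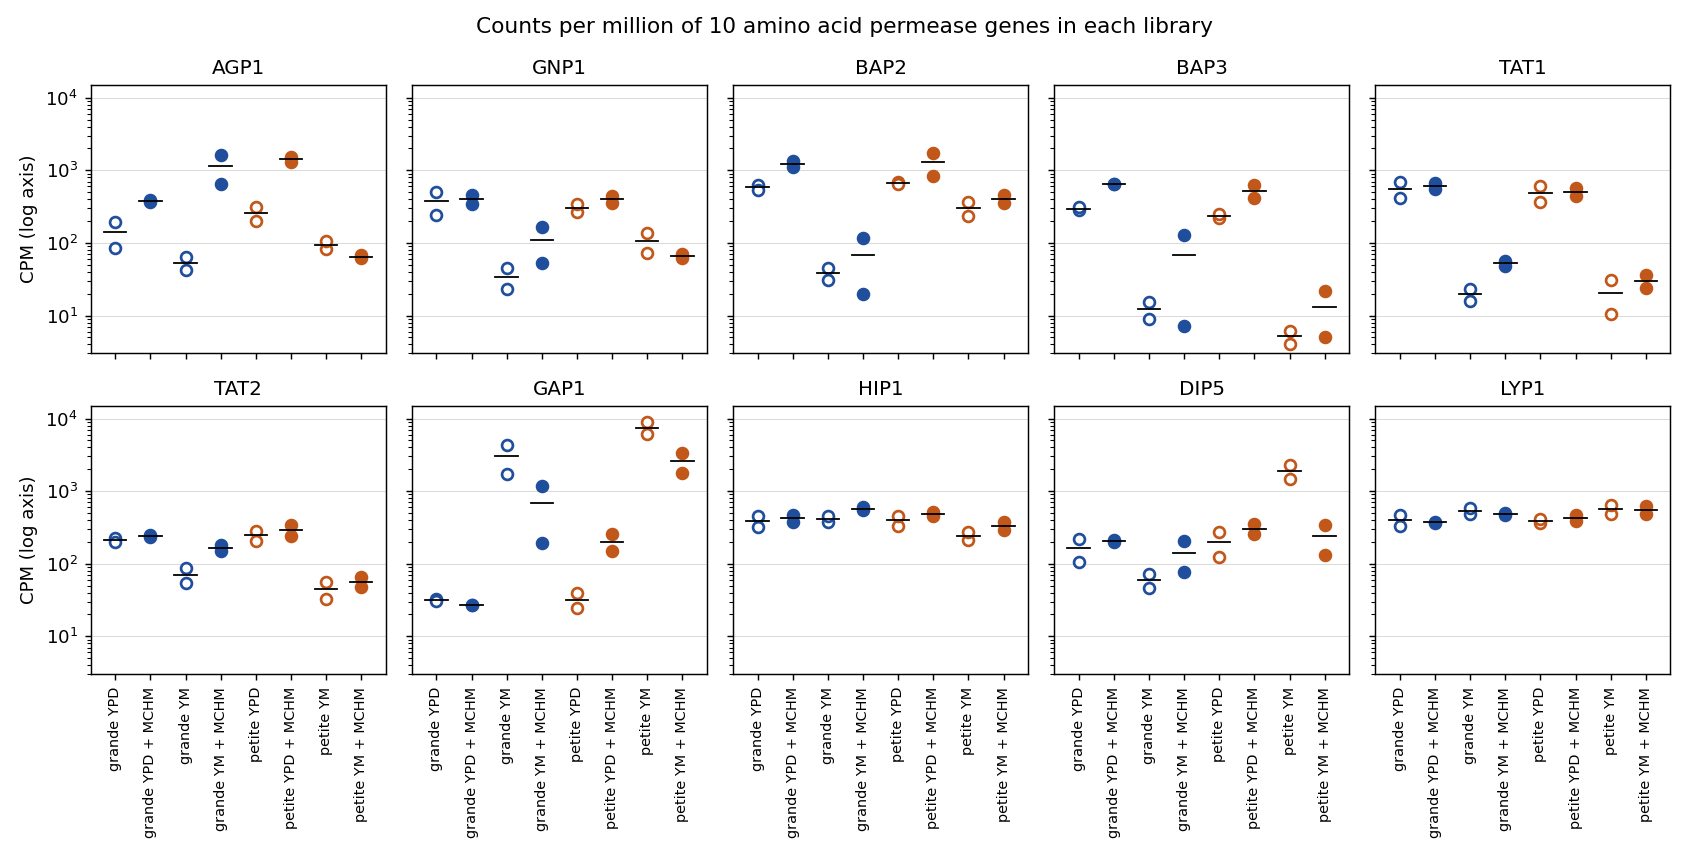
CPM of the 10 members (log axis) in the 8 groups. Each point is 1 library (open, untreated; filled, with MCHM; blue, grande; orange, petite) and the line is the mean of 2. GAP1 ranged from 24.2 to 8858 CPM and BAP3 from 4.11 to 652 CPM, whereas LYP1 stayed between 334 and 652 CPM.

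**Figure D2:**
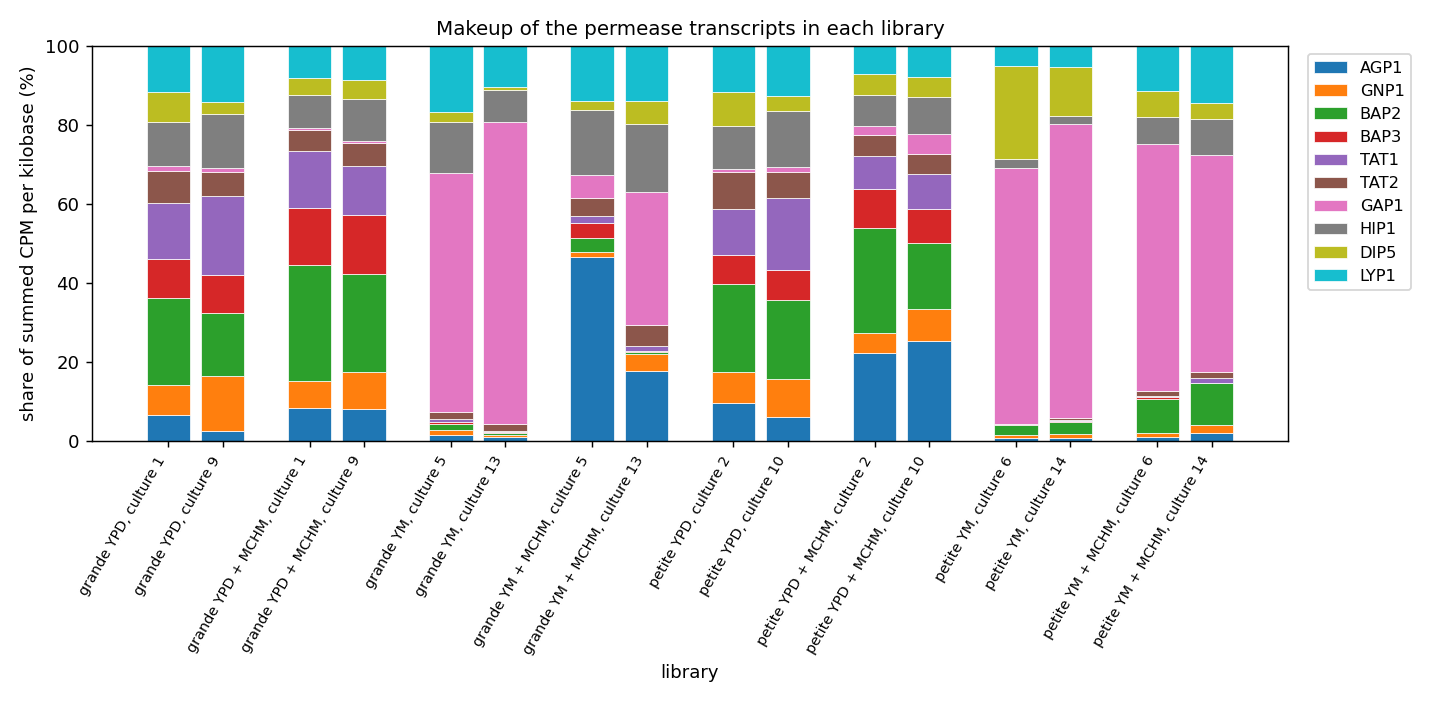
Share of each member in the summed CPM per kilobase of the 10 members (%), 1 bar for each library. GAP1 took under 2% in untreated YPD and over 60% in untreated YM, and AGP1 took 46.5% and 17.7% in grande yeast with MCHM in YM.

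The comparison of YM with YPD asks how the members differed between a minimal and a rich medium. It gave 21 calls among 40 pairs of member and comparison, 5 higher and 16 lower in YM, where a call needs at least a 2-fold difference and a Benjamini-Hochberg adjusted p of less than 0.05 in edgeR's quasi-likelihood fit. In untreated grande yeast, 6 of the 10 members were called (1 higher, 5 lower), against 2.6% of all genes tested (1.86% higher, 0.734% lower). In untreated petite yeast, 6 were called (2 higher, 4 lower), against 15.2% (9% higher, 6.22% lower). With MCHM, 3 members were called in grande yeast (1 higher, 2 lower) against 0.427% of all genes (0.222% higher, 0.205% lower), and 6 in petite yeast (1 higher, 5 lower) against 5.14% (2.12% higher, 3.02% lower). The median log2 difference of the 10 members was -1.51, -1.30, -0.55 and -2.02 in these 4 comparisons, while that of all genes lay between -0.02 and 0.06. An SE below is the absolute log2 difference divided by the square root of the F statistic of that fit. A fit with 1 library left out keeps 1 library in that group. A call lost there can reflect the smaller group as well as a changed value.

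GAP1, the general permease under nitrogen catabolite repression, was higher in YM in all 4 comparisons. In grande yeast it had 32.7 and 30.4 CPM in YPD and 1731 and 4264 CPM in YM. The groups were far apart, although the YM libraries differed 2.46-fold between themselves. The log2 difference was 6.57 (SE 0.86, 94.9-fold, adjusted p = 0.00234). In petite yeast it had 24.2 and 39.9 CPM in YPD and 6139 and 8858 CPM in YM, the highest levels of any member. The log2 difference there was 7.86 (SE 0.90, 232-fold, adjusted p = 0.000262). Leaving out any of the 16 libraries kept both calls, with log2 values of 5.79 (without grande YM culture 13) to 7.16 (without grande YM culture 5) and 7.55 to 8.27.

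With MCHM the distance of GAP1 between the media was smaller in value. In grande yeast it had 27.0 and 26.7 CPM in YPD and 195 and 1178 CPM in YM, a log2 difference of 4.67 (SE 0.79, adjusted p = 0.0303). Without culture 13 of grande YM with MCHM this was 2.85 (adjusted p = 0.0825), without culture 5 it was 5.43, and the call was also lost without either grande YPD library with MCHM (adjusted p = 0.314 and 0.173). In petite yeast it had 147 and 254 CPM in YPD and 3352 and 1786 CPM in YM, a log2 difference of 3.68 (SE 0.74, adjusted p = 0.0162). That call was lost without any of its own 4 libraries (adjusted p between 0.0559 and 0.164).

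TAT1, for tyrosine and other neutral amino acids, was lower in YM in all 4 comparisons. Grande yeast had 420 and 680 CPM in YPD and 15.9 and 23.4 CPM in YM, and petite yeast had 370 and 600 CPM in YPD and 10.5 and 30.6 CPM in YM. The YM libraries lay far below the YPD libraries of their strain. The log2 differences were -4.80 (SE 0.51, adjusted p = 0.00115) and -4.55 (SE 0.50, adjusted p = 0.000238), and no left-out library ended these calls, though the petite value was -5.52 without petite YM culture 14. With MCHM, grande yeast had 665 and 561 CPM in YPD and 56.2 and 48.2 CPM in YM (log2 -3.55, adjusted p = 0.00821), a call lost without any of its own 4 libraries (adjusted p 0.0825 to 0.0966). Petite yeast had 565 and 446 CPM in YPD and 23.9 and 35.9 CPM in YM (log2 -4.07, adjusted p = 0.00246), and no left-out library ended that call.

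BAP3, a branched-chain amino acid permease, was low in YM. It had 280 and 315 CPM in grande YPD and 15.5 and 8.90 CPM in grande YM, and 219 and 251 CPM in petite YPD and 4.11 and 6.18 CPM in petite YM. The YM values were the lowest of any member in petite yeast. The log2 difference was -4.61 in grande yeast (SE 1.02, adjusted p = 0.0349) and -5.50 in petite yeast (SE 1.07, adjusted p = 0.00492). The grande call was lost in 8 of the 16 fits with 1 library left out (log2 -4.98 to -4.25, adjusted p up to 0.177), among them the fits without each of its own 4 libraries, and the petite call in none. With MCHM, petite yeast had 635 and 415 CPM in YPD and 21.4 and 5.13 CPM in YM, a log2 difference of -5.36 (SE 1.04, adjusted p = 0.0140). It was -6.67 without petite YM culture 6 with MCHM, and the call was lost without culture 14 of that group (-4.61, adjusted p = 0.133) or without petite YPD culture 2 with MCHM (adjusted p = 0.0740). In grande yeast with MCHM it had 646 and 652 CPM in YPD against 127 and 7.25 CPM in YM (log2 -3.27, adjusted p = 0.145), which was -6.50 without grande YM culture 5 with MCHM (adjusted p = 0.00907), and DESeq2 called it (adjusted p = 0.0325).

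BAP2 and GNP1 were called lower in grande yeast in YM, and were not called in untreated petite yeast. BAP2, the other branched-chain permease and the neighbour of TAT1, had 630 and 532 CPM in grande YPD and 45.4 and 31.3 CPM in grande YM (log2 -3.92, SE 0.67, adjusted p = 0.00974). In petite yeast it had 693 and 645 CPM in YPD and 233 and 365 CPM in YM (log2 -1.16, adjusted p = 0.198), so the groups did not overlap there either. GNP1, the high-affinity glutamine permease, had 242 and 508 CPM in grande YPD and 45 and 23.4 CPM in grande YM (log2 -3.46, SE 0.58, adjusted p = 0.00837), and 269 and 344 CPM in petite YPD against 73.5 and 139 CPM in petite YM (log2 -1.53, adjusted p = 0.0632, called by DESeq2 at 0.0204). The BAP2 call in grande yeast was lost without grande YM culture 5 or 13 (adjusted p = 0.0635 and 0.0851), and the GNP1 call without grande YPD culture 9 (log2 -2.77, adjusted p = 0.0649) or grande YM culture 13 (adjusted p = 0.0745).

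With MCHM, BAP2 was lower in YM in grande yeast, with 1326 and 1105 CPM in YPD against 117 and 20.0 CPM in YM (log2 -4.15, SE 0.67, adjusted p = 0.0255). That value was -5.95 without culture 5 and -3.39 without culture 13 of the YM group, and the call was lost without either YPD library (adjusted p = 0.156 and 0.136). GNP1 was lower in YM in petite yeast with MCHM, with 355 and 440 CPM in YPD against 61.5 and 69.5 CPM in YM (log2 -2.60, SE 0.55, adjusted p = 0.0198). The GNP1 call was lost without any of its own 4 libraries (adjusted p 0.0708 to 0.137). DESeq2 called a further pair of values that edgeR did not call. GNP1 in grande yeast with MCHM had 348 and 454 CPM in YPD against 52.1 and 167 CPM in YM (log2 -1.87, adjusted p = 0.145, DESeq2 0.0170), with -1.28 and -2.95 without culture 5 and culture 13 of the YM group. BAP2 in petite yeast with MCHM had 1753 and 829 CPM in YPD against 461 and 351 CPM in YM (log2 -1.67, adjusted p = 0.119, DESeq2 0.0305), with -1.06 without petite YPD culture 2 with MCHM.

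TAT2, the high-affinity tryptophan permease, was lower in YM in 3 of the 4 comparisons. It had 224 and 197 CPM in grande YPD against 53.5 and 88.3 CPM in grande YM (log2 -1.56, SE 0.33, adjusted p = 0.0283), a call lost in 5 of the 16 fits with 1 library left out, for example without grande YM culture 5 (-1.17, adjusted p = 0.190). In petite yeast it had 283 and 208 CPM in YPD against 32.6 and 55.6 CPM in YM (log2 -2.47, SE 0.34, adjusted p = 0.000769). With MCHM, petite yeast had 339 and 241 CPM in YPD against 64.6 and 48.1 CPM in YM (log2 -2.37, SE 0.33, adjusted p = 0.00391), and this call alone of the petite pair was lost without petite YM culture 14 with MCHM (adjusted p = 0.0559). In grande yeast with MCHM, TAT2 had 236 and 248 CPM in YPD and 149 and 179 CPM in YM and was not called.

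AGP1 and DIP5 had values in both directions. AGP1 was lower in YM in petite yeast, with 310 and 203 CPM in YPD and 81.2 and 107 CPM in YM (log2 -1.45, SE 0.45, adjusted p = 0.0426), a call lost in 10 of the 16 fits with 1 library left out (adjusted p up to 0.188), those without each of its own 4 libraries among them. With MCHM the distance was larger, with 1526 and 1296 CPM in petite YPD against 61.8 and 68.1 CPM in petite YM (log2 -4.44, SE 0.51, adjusted p = 0.00246), and no left-out library ended that call. In grande yeast edgeR did not call AGP1. Without MCHM it had 196 and 85 CPM in YPD against 42.7 and 63.6 CPM in YM (log2 -1.40, adjusted p = 0.129), and -0.68 without grande YPD culture 1. With MCHM it had 389 and 371 CPM in YPD against 1620 and 653 CPM in YM (log2 1.58, adjusted p = 0.145), and 0.76 without grande YM culture 5 with MCHM. DESeq2 called both (adjusted p = 0.0475 and 0.0201). DIP5, the glutamate and aspartate permease, was higher in YM in untreated petite yeast, with 271 and 123 CPM in YPD and 2273 and 1470 CPM in YM (log2 3.25, SE 0.62, adjusted p = 0.00453, 3.92 without petite YPD culture 2). In untreated grande yeast it had 218 and 107 CPM in YPD and 72.6 and 46.1 CPM in YM (log2 -1.45, adjusted p = 0.213, and -0.85 without grande YPD culture 1). Among all these medium calls, the fit of only the groups compared ended those of GNP1 and TAT2 in grande yeast (adjusted p = 0.117 and 0.231), AGP1 in petite yeast (0.0708, and 0.0537 with library size alone) and BAP2 and GAP1 in grande yeast with MCHM (0.0743 and 0.0646).

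**Figure D3:**
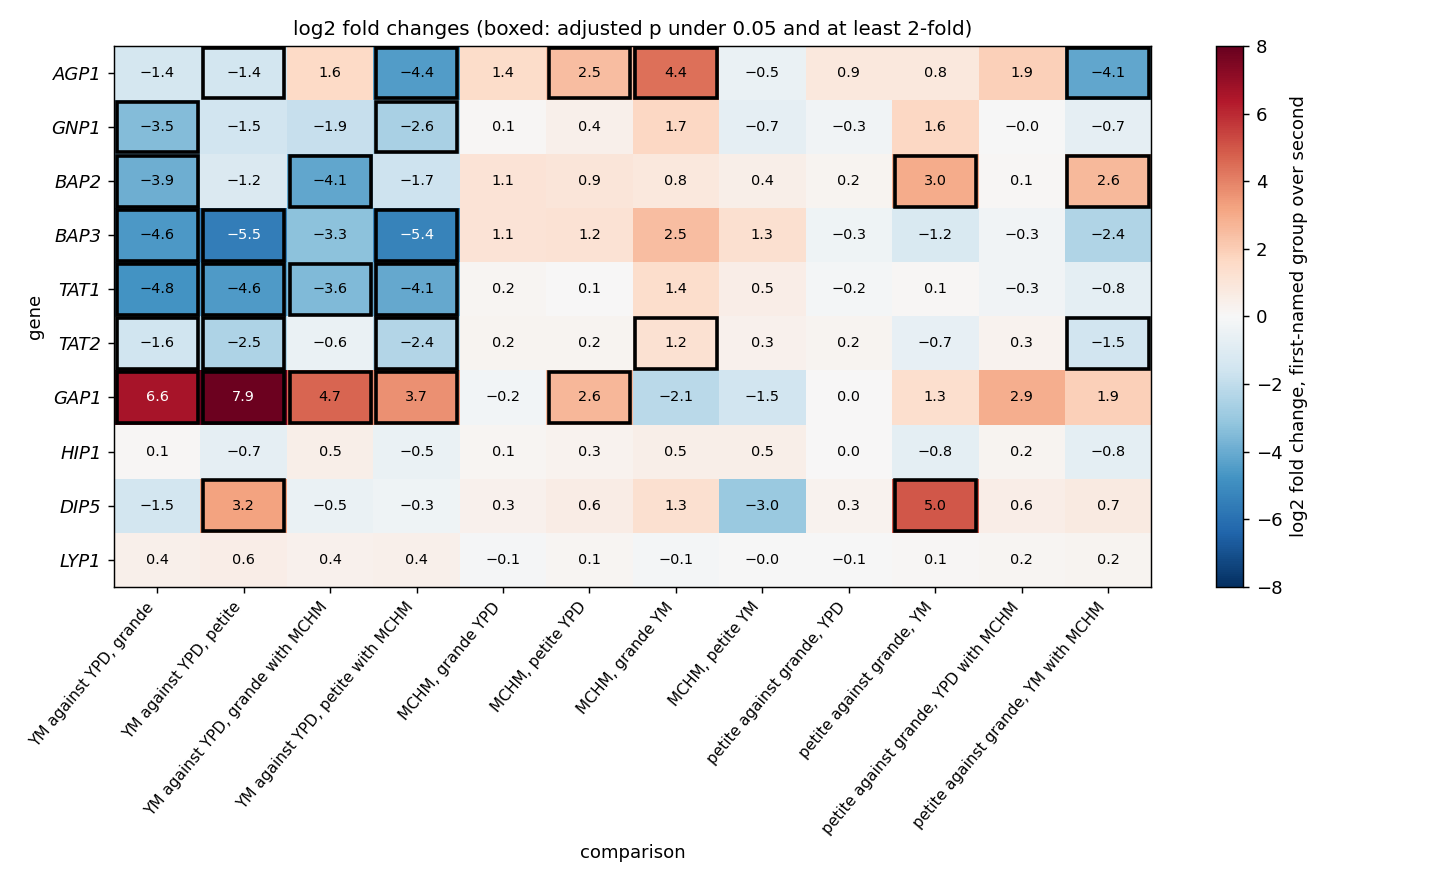
log2 fold changes of the 10 members (rows) in the 12 comparisons (columns), the group named before "against" over the other, or MCHM over no MCHM. Boxes mark calls. GAP1 is boxed as higher and TAT1 as lower in all 4 comparisons of YM with YPD, and no box falls on HIP1 or LYP1.

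The comparison of MCHM with no MCHM asks how the members responded to the solvent. Without a block for the divided culture it gave 4 calls among 40 pairs, all higher with MCHM. These were 2 members in petite YPD against 9.32% of all genes and 2 in grande YM against 5.07%. There were 0 in grande YPD against 2.19% and 0 in petite YM against 0.546%. With that block, 2 members were called in petite YPD, 4 in grande YM, 1 in petite YM and 0 in grande YPD. GAP1 in grande YM and DIP5 in petite YM were then called lower (log2 -2.50 and -3.10, edgeR adjusted p = 0.00769 and 0.0175). DESeq2 called 5 members in grande YM. In grande YPD 1 member, AGP1, had an unadjusted p under 0.05, and DESeq2's Wald test called 1. In petite YM 2 members had an unadjusted p under 0.05, GAP1 and DIP5, and DESeq2 called 1. Of 10 members, 2 calls beside 9.32% of all genes is no result about the family.

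AGP1, the broad-range permease of the SPS pathway, had the largest log2 difference of the 40 pairs, in grande YM. There it went from 42.7 to 1620 CPM in culture 5 and from 63.6 to 653 CPM in culture 13. Both treated portions stood above both untreated ones, and the cultures differed in size, 38.0-fold and 10.3-fold. The log2 difference was 4.42 (SE 0.51, adjusted p = 0.000923), it was 3.57 without culture 5 of the treated group (adjusted p = 0.00711), and no left-out library ended the call. In petite YPD it went from 310 to 1526 CPM in culture 2 and from 203 to 1296 CPM in culture 10 (log2 2.46, SE 0.47, adjusted p = 0.00795), a call lost without petite YPD culture 10 (2.18, adjusted p = 0.0821). In grande YPD it went from 196 to 389 CPM and from 85 to 371 CPM (log2 1.44, SE 0.45, adjusted p = 0.123), with the groups apart. That value was 2.16 without grande YPD culture 1 (adjusted p = 0.0596), and DESeq2 called it (adjusted p = 0.0293). In petite YM it went from 81.2 to 61.8 CPM and from 107 to 68.1 CPM, and was not called.

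Without a block, the 1 call of GAP1 for MCHM was in petite YPD. There it went from 24.2 to 147 CPM in culture 2 and from 39.9 to 254 CPM in culture 10 (log2 2.64, SE 0.72, 6.22-fold, adjusted p = 0.0358). The cultures gave close ratios, 6.08-fold and 6.37-fold. The call was lost without any of its own 4 libraries, fits that keep 1 library in a group, with log2 values of 2.19 to 3.06. In YM, where GAP1 was abundant, the treated portions were lower in all 4 cultures. Grande YM went from 1731 to 195 CPM and from 4264 to 1178 CPM (log2 -2.13, SE 0.69, adjusted p = 0.0944). Single libraries moved that value, to -1.34 without grande YM culture 13, to -1.41 without culture 5 of the treated group and to -3.99 (adjusted p = 0.0180) without culture 13 of the treated group. Petite YM went from 6139 to 3352 CPM and from 8858 to 1786 CPM (log2 -1.55, adjusted p = 0.613). With the divided culture as a block, the grande YM difference was -2.50 and was called (adjusted p = 0.00769), as it was by DESeq2 (adjusted p = 0.0139).

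TAT2 was called higher with MCHM in grande YM, from 53.5 to 149 CPM and from 88.3 to 179 CPM (log2 1.21, SE 0.32, adjusted p = 0.0499). This call lay at the threshold and was lost in 14 of the 16 fits with 1 library left out, with log2 values of 0.82 (without grande YM culture 5) to 1.61, and with DESeq2's size factors, without a filter and in the fit of only the groups compared (adjusted p = 0.0557, 0.0587 and 0.164). TAT1 in grande YM went from 15.9 to 56.2 CPM and from 23.4 to 48.2 CPM (log2 1.40, adjusted p = 0.0947) and was called with the culture block (1.42, adjusted p = 0.0495). DIP5 in petite YM went from 2273 to 346 CPM and from 1470 to 132 CPM (log2 -2.97, SE 0.61, adjusted p = 0.0572). The treated portions had 0.152 and 0.0897 times the untreated level, and with the culture block the difference was called (-3.10, adjusted p = 0.0175). It was also called with library size alone, without a filter and by DESeq2 (adjusted p = 0.0392, 0.0491 and 2.4e-05). In the other 3 combinations of strain and medium DIP5 was not called. In grande YM it went from 72.6 to 76.8 CPM and from 46.1 to 207 CPM (log2 1.26, adjusted p = 0.234, and 0.35 without culture 13 of the treated group).

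BAP2 and BAP3 had higher values with MCHM in YPD without a call. BAP2 went from 630 to 1326 CPM and from 532 to 1105 CPM in grande yeast (log2 1.07, adjusted p = 0.426), and BAP3 from 280 to 646 CPM and from 315 to 652 CPM (log2 1.12, adjusted p = 0.579). In petite YPD, BAP3 went from 219 to 635 CPM and from 251 to 415 CPM (log2 1.16, adjusted p = 0.419). In grande YM the treated libraries disagreed, with BAP3 at 127 CPM in culture 5 and 7.25 CPM in culture 13 and BAP2 at 117 and 20.0 CPM, so the BAP3 difference of 2.46 (adjusted p = 0.147) became -0.78 without culture 5. GNP1 was split the other way in that group, at 52.1 and 167 CPM against 45 and 23.4 CPM untreated (log2 1.68, adjusted p = 0.0920, DESeq2 0.0214), and its value was 0.59 without culture 13 of the treated group. BAP3 in petite YM had a log2 difference of 1.30 (adjusted p = 0.787), with overlap between the groups.

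**Figure D4:**
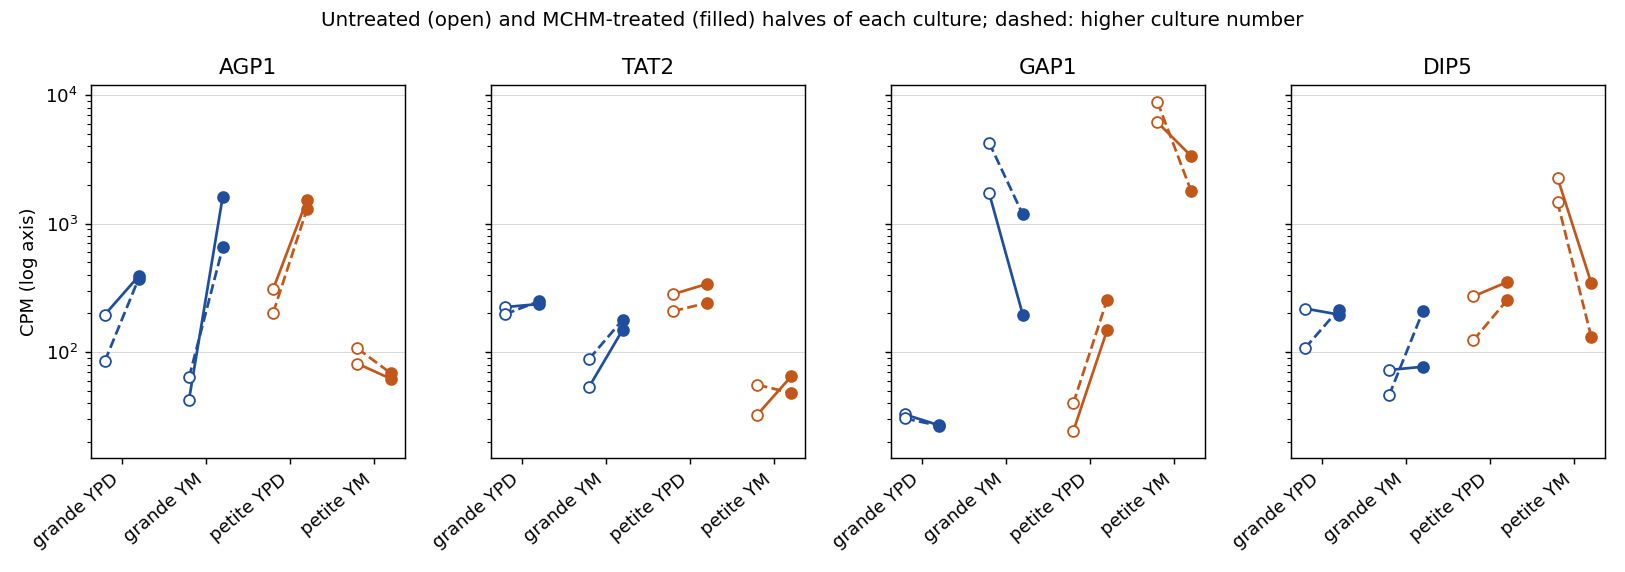
CPM (log axis) of AGP1, TAT2, GAP1 and DIP5 in the untreated (open) and MCHM-treated (filled) portion of each divided culture, joined by a line (solid, lower culture number; dashed, higher; blue, grande; orange, petite). AGP1 lines go up steeply in grande YM and petite YPD and down in petite YM, and GAP1 lines go up in petite YPD and down in YM.

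The comparison of petite with grande yeast asks which members differed between the strains. It gave 5 calls among 40 pairs. In YPD no member was called, with MCHM or without it, against 0% and 1.52% of all genes. In untreated YPD no member had an unadjusted p under 0.05 and DESeq2 called 0. In YPD with MCHM, 2 members, AGP1 and GAP1, had an unadjusted p under 0.05 and DESeq2 called 2. There AGP1 had 389 and 371 CPM in grande and 1526 and 1296 CPM in petite yeast (log2 1.89, SE 0.46, adjusted p = 0.0717), and GAP1 27.0 and 26.7 CPM against 147 and 254 CPM (log2 2.90, SE 0.73, adjusted p = 0.0869). Both were called when only the libraries of the groups compared were fitted (adjusted p = 0.0214 and 0.0208).

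In untreated YM, 2 members were higher in petite yeast, against 10.7% of all genes called in either direction. DIP5 had 72.6 and 46.1 CPM in grande and 2273 and 1470 CPM in petite yeast (log2 4.98, SE 0.68, 31.6-fold, adjusted p = 0.00222), and no left-out library ended the call. BAP2 had 45.4 and 31.3 CPM in grande and 233 and 365 CPM in petite yeast (log2 2.96, SE 0.65, 7.81-fold, adjusted p = 0.0130). The BAP2 call was lost without grande YM culture 13 (adjusted p = 0.121) or petite YM culture 14 (adjusted p = 0.0577), and in the fit of only the groups compared (adjusted p = 0.0594). Its paralog BAP3 had 15.5 and 8.90 CPM in grande and 4.11 and 6.18 CPM in petite yeast and was not called (log2 -1.23, adjusted p = 0.450). GNP1 (log2 1.64, adjusted p = 0.0638) and GAP1 (log2 1.32, adjusted p = 0.212) had higher values in petite yeast and were not called. With library size alone and by DESeq2, GNP1 was called (adjusted p = 0.0400 and 0.0177), and the GAP1 value was 0.70 and 2.07 without grande YM culture 5 and culture 13.

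In YM with MCHM, 3 members were called, against 3.72% of all genes. AGP1 was lower in petite yeast, at 61.8 and 68.1 CPM against 1620 and 653 CPM in grande yeast (log2 -4.13, SE 0.50, 17.5-fold, adjusted p = 0.00315). It was -3.29 without grande YM culture 5 with MCHM, and no left-out library ended the call. TAT2 was lower as well, at 64.6 and 48.1 CPM against 149 and 179 CPM (log2 -1.55, SE 0.33, adjusted p = 0.0283), a call lost in 6 of the 16 fits with 1 library left out (adjusted p up to 0.227), those without each of its own 4 libraries among them. BAP2 was higher, at 461 and 351 CPM against 117 and 20.0 CPM (log2 2.57, SE 0.63, adjusted p = 0.0427). The BAP2 value was 4.37 without grande culture 5 and 1.81 without grande culture 13, and 12 of the 16 left-out fits lost the call, as did the fit of only the groups compared (adjusted p = 0.0971). GAP1 had higher values in petite yeast (log2 1.90, adjusted p = 0.132, DESeq2 0.0387), with 1.15 and 3.73 without grande culture 5 and culture 13. BAP3 had a log2 difference of -2.39 (adjusted p = 0.162), with overlap between the groups.

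Differences between these comparisons were tested themselves, in 50 pairs, of which 2 were called. The response of AGP1 to MCHM in YM differed between the strains, by -4.95 on the log2 scale for petite less grande (SE 0.67, adjusted p = 0.0461), and AGP1 was the 1 gene called of 5856 (0.0171%). AGP1 was higher with MCHM in 2 of 2 grande cultures and had lower values in 2 of 2 petite cultures. The call was lost in 10 of the 16 fits with 1 library left out (log2 -5.35 to -4.03, adjusted p up to 0.265), among them the fit without grande culture 5 with MCHM (-4.03, adjusted p = 0.0717). For DIP5, the difference between petite and grande yeast was larger in YM than in YPD by 4.70 (SE 0.85, adjusted p = 0.0468), against 0.529% of all genes called in that comparison. The DIP5 call was lost in 11 of the 16 fits (log2 4.10 to 5.37, adjusted p up to 0.218), for example without grande YPD culture 1 (4.10, adjusted p = 0.166). The fit of only the groups compared ended both calls (adjusted p = 0.159 for AGP1 and 0.123 for DIP5).

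In petite yeast, the response to MCHM differed in value between YM and YPD for AGP1 (-2.99, adjusted p = 0.0585), GAP1 (-4.18, adjusted p = 0.0848) and DIP5 (-3.59, adjusted p = 0.0807), with 0.461% of all genes called. With all libraries kept, edgeR called none of these 3 without a block, while all 3 were called with the divided culture as a block (-3.01, -4.23 and -3.80, adjusted p = 0.0402, 0.0105 and 0.0268). DESeq2, which had no block, called all 3 (adjusted p = 0.000225, 0.00027 and 0.000336), and edgeR called AGP1 and GAP1 when either library of grande YM with MCHM was left out. The smaller medium difference of BAP2 in petite than in grande yeast, 2.76 on the log2 scale, was not called (adjusted p = 0.161, DESeq2 0.0204). The response of AGP1 in grande yeast was larger in YM than in YPD by 2.98 (SE 0.64, adjusted p = 0.168, DESeq2 0.00208) and was not called either. The response of DIP5 in YM, petite less grande, was -4.23 (adjusted p = 0.106, DESeq2 0.000106). That of GAP1 in YPD, petite less grande, was 2.87 (adjusted p = 0.890, DESeq2 0.0461). The differences not called by edgeR lay between the values of -4.23 for DIP5 and 2.98 for AGP1.

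HIP1, the histidine permease, and LYP1, the lysine permease, were called in none of the 12 comparisons. HIP1 ranged from 213 CPM in petite YM to 606 CPM in grande YM with MCHM over the 16 libraries, with a median of 412 CPM. LYP1 ranged from 334 CPM in grande YPD to 652 CPM in petite YM, with a median of 470 CPM. The 95% intervals of their log2 differences, built from the SE derived from the F statistic, are approximate. Over the 12 comparisons they lay between -1.36 and 1.03 for HIP1 and between -0.69 and 1.10 for LYP1, so differences of up to about that size were not excluded by the spread. Some intervals, which are not adjusted over genes, left out 0. For petite against grande yeast, HIP1 had -0.78 in YM (-1.35 to -0.21, edgeR adjusted p = 0.0648). In YM with MCHM it had -0.79 (-1.36 to -0.23, adjusted p = 0.101). In untreated petite yeast, YM against YPD gave -0.71 for HIP1 (-1.28 to -0.14, adjusted p = 0.0756). LYP1 had 0.56 there (0.011 to 1.10, adjusted p = 0.140). The highest group mean of LYP1 was 1.52-fold its lowest and that of HIP1 2.38-fold, against 279-fold for GAP1 and 126-fold for BAP3.

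Other genes of amino acid uptake gave the surroundings of the medium difference. In untreated petite yeast, 5 of 9 other plasma membrane amino acid permeases were called, 4 higher and 1 lower in YM, against 9% and 6.22% of all genes. PUT4, the proline permease, had 11.1 and 4.75 CPM in YPD and 2187 and 2635 CPM in YM (log2 8.29, adjusted p = 6.3e-05). CAN1, the arginine permease, had a log2 difference of 3.36, SAM3, for S-adenosylmethionine, 1.96 and MUP3, for methionine, 1.87, while MUP1, the high-affinity methionine permease, was lower (-1.97, adjusted p = 0.0438). In untreated grande yeast 2 of the 9 were called, PUT4 (4.74) and CAN1 (2.38), both higher. Without MCHM, GAP1, PUT4 and CAN1 were called higher in YM in both strains, and HIP1 and LYP1 in neither. No member named above as a target of the SPS pathway was called higher in both. DIP5, which is such a target, was called higher in petite yeast (log2 3.25) but not in grande yeast (-1.45). With MCHM, 0 of the 9 other permeases were called in grande yeast, against 0.427% of all genes. In petite yeast with MCHM, PUT4 was called higher and MUP1 lower, against 5.14% of all genes.

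Of the SPS pathway list, 4 of 11 genes were called higher in YM in untreated petite yeast (PTR3, STP1, STP2 and the target PTR2) and none lower. In untreated grande yeast edgeR's fit called 0 of the 11, while 6 had an unadjusted p under 0.05 and DESeq2 called 3 (2 higher, 1 lower). PTR2, a di- and tripeptide transporter, had 43.1 and 24.7 CPM in grande YM and 653 and 638 CPM in petite YM (log2 4.25 for petite against grande, adjusted p = 0.00306). Among 5 regulators of nitrogen catabolite repression, 4 were higher in YM in petite yeast and 2 (GAT1 and DAL80) in grande yeast, and none was lower. DAL80, a GATA repressor, had 0 counts in both petite YPD libraries and 192 and 363 CPM in petite YM. Of 9 genes of permease traffic and turnover, 3 were called higher in petite yeast and 1 in grande yeast, NPR1, a kinase that stabilizes Gap1, in both (log2 2.10 and 1.41). Of 10 vacuolar transporters tested of 11 listed, 5 and 3 were called higher. Those lists were compiled with earlier results known. In each, edgeR's count of genes called higher stands beside 9% of all genes called higher in petite and 1.86% in grande yeast.

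**Figure D5:**
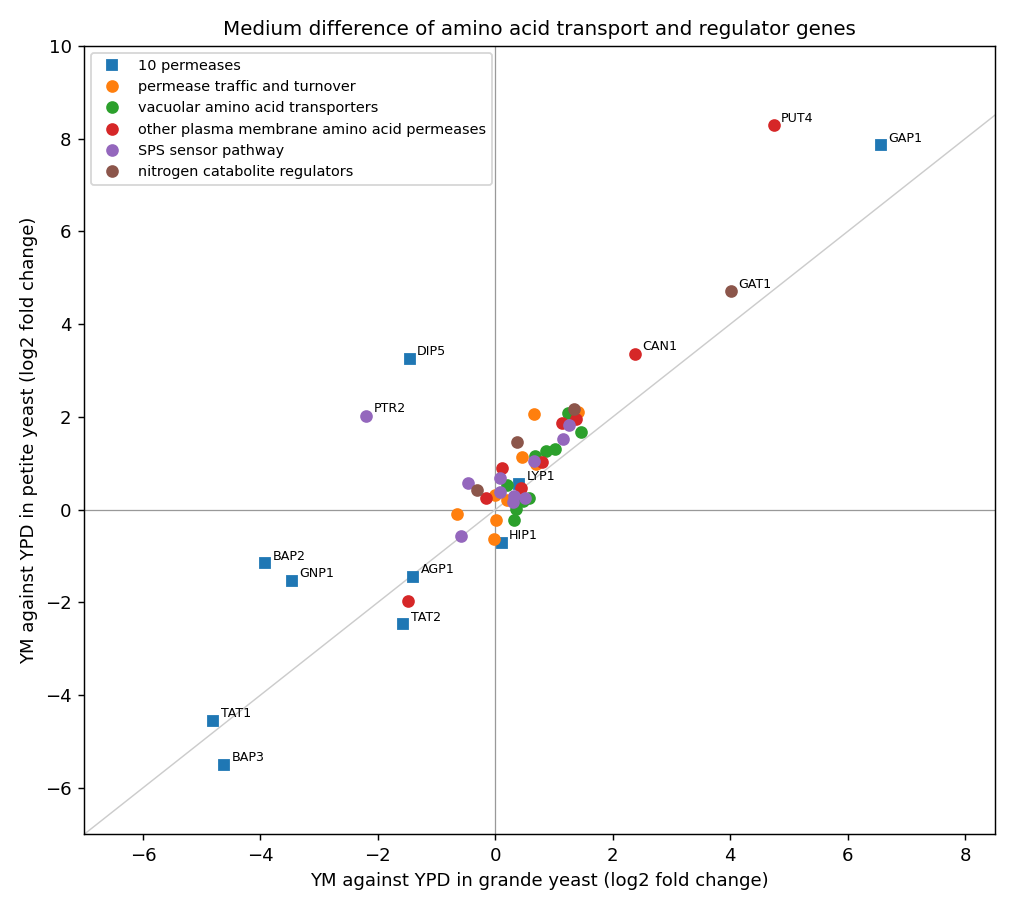
log2 fold change of YM against YPD without MCHM in grande (x axis) and petite yeast (y axis) for the 10 members (squares) and 5 lists of other genes of amino acid uptake (circles), with the line of equality. GAP1 (6.57 and 7.86) and PUT4 (4.74 and 8.29) lie at the upper right, TAT1 and BAP3 at the lower left, and DIP5 (-1.45 and 3.25) off the line; DAL80 and VBA3 are left out because a group had 0 counts.

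Over the 16 libraries, the log2 CPM of the members ran together in groups, given here as descriptions over libraries that share strain, medium and treatment. Pearson's r was 0.93 between BAP3 and TAT1 and 0.90 between TAT1 and TAT2, and it was -0.92 between GAP1 and TAT1. Of all other genes tested, the 2 most like GAP1 were DAL7, a malate synthase of allantoin use (r = 0.97), and MEP2, the high-affinity ammonium permease (r = 0.96). The most like TAT1 were CHA1, a serine and threonine deaminase (r = 0.95), and FRE1, a ferric reductase (r = 0.94). TAT2 was most like PPN2, a polyphosphatase gene, and CHA1 (r = 0.92 and 0.89), and BAP3 most like PPN2 and MMF1 (r = 0.96 and 0.88). DIP5 was most like PTR2 and YGR266W (r = 0.86 and 0.86), GNP1 most like FRE1 and PHO12 (r = 0.89 and 0.89) and AGP1 most like CSS3 and MSF1 (r = 0.89 and 0.84). HIP1 was most like GND1 and YIH1 (r = 0.89 and 0.89) and LYP1 most like FCY2, a purine-cytosine permease, and ZRG17 (r = 0.89 and 0.88). BAP2 had the loosest matches, EDE1 and YHR214W-A (r = 0.82 and 0.79).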

How the data were processed

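RNA was sequenced from 16 unstranded paired-end libraries (8 groups of 2). The authors counted reads per gene and deposited the raw counts of 6717 genes without normalization; the submitters' notes name TopHat2 2.0.12, DESeq2 1.8.1 and the R64 build. A second deposited table holds the authors' own comparisons (fold changes and p-values) and was not used. Columns were assigned to groups by strain, medium and treatment in their names, and 0 columns of per-sample values were left out.

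Genes were kept by edgeR's filterByExpr (minimum count 10, minimum total 15), which left 5856. Counts were scaled by TMM, and 1 edgeR 4.0.16 quasi-likelihood model with a mean per group was fitted to all 16 libraries (R 4.3.3, prior count 0.125, common biological coefficient of variation 29.5%). P-values were adjusted over all genes tested within each of 17 comparisons. CPM are TMM-scaled, with 0.5 added on the log2 scale. Alternatives were size factors, library size, no filter, DESeq2 1.42.0, other sets of libraries and replicate blocks. Per the labels, the treated and the untreated library came from 1 divided culture, and the column names carry its number. A culture block was therefore also fitted. Deviations of paired libraries correlated at 0.523 (grande YPD), 0.479 (petite YPD), 0.334 (grande YM) and 0.34 (petite YM). Over all 28 pairs of groups the median correlation was 0.455. These values thus do not tell a shared culture from the split of culture numbers described below.

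All 10 members were named, with full statistics for pairs that were called. The rest were given by ranges, or by their values where an alternative called them. Beside each member, the 2 genes outside the list with the highest Pearson correlation over the 16 libraries are given. Members and gene lists were chosen with earlier results of these data known. Names, positions and sequences come from the RefSeq R64 genome and annotation (6025 identifiers matched a symbol), read with Biopython 1.88. The fits were tested on simulated counts. The labels describe the 2 libraries of a group as replicate cultures.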

Additional observations from a re-analysis of the deposited data

Results flagged for a closer look

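The response of AGP1 to MCHM in YM differed between petite and grande yeast by -4.95 on the log2 scale (adjusted p = 0.0461, edgeR's quasi-likelihood test of the difference). The call lay near the threshold, and the fit of only the groups compared did not make it (-4.83, adjusted p = 0.159). AGP1 was 38.0-fold and 10.3-fold higher with MCHM in the 2 grande cultures, and 0.761-fold and 0.639-fold the untreated level in the 2 petite cultures.

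The difference of DIP5 between petite and grande yeast was larger in YM than in YPD by 4.70 on the log2 scale (adjusted p = 0.0468, same test). This call too lay near the threshold and was not made in the fit of only the groups compared (4.72, adjusted p = 0.123). The 2 petite libraries in YM held 2273 and 1470 CPM and the 2 grande libraries 72.6 and 46.1 CPM, whereas in YPD the groups overlapped, at 271 and 123 CPM and 218 and 107 CPM.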

How the results depend on the processing

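Calls among the members numbered 4 for MCHM, 5 for strain, 21 for medium and 2 for the differences. DESeq2's Wald test gave 9, 9, 27 and 9, and the fit of only the groups compared gave 3, 5, 16 and 0. For that 0, the 2 differences had adjusted p = 0.159 (AGP1) and 0.123 (DIP5). DESeq2's size factors gave 3, 5, 21 and 2, library size alone 5, 6, 20 and 2, and no filter 4, 5, 21 and 2. A replicate block for the divided culture could be fitted only for MCHM and for differences in its response, not for strain, medium or the DIP5 difference. It made 7 calls for MCHM and ended none of those it could test. Culture numbers also split every group into a low-numbered and a high-numbered library, which the labels do not explain. Low-numbered (or high-numbered) libraries deviated together in 28 pairs of groups (r 0.0257 to 0.735, median 0.455). With this split as a replicate block, the calls were 9, 9, 24 and 6. Leaving out 1 library gave 1 to 6, 3 to 7, 15 to 24 and 0 to 4 calls. Values of BAP3 changed sign when 1 library was left out. For MCHM they ranged from -0.78 to 3.36 in grande YM and from -0.013 to 2.04 in petite YM, for petite against grande in YM with MCHM from -3.71 to 0.84, and for the MCHM response from -2.47 to 2.14 (petite less grande, YM) and from -1.93 to 2.21 (YM less YPD, grande). The cause was not tested. Scaling by library size alone moved the median of all genes by 0.32 (petite against grande, YM with MCHM), 0.261 (the same in YM) and -0.225 (YM against YPD, grande). With 2 libraries a group, a missed threshold does not show that a level was the same. A fit with 1 library left out keeps 1 library in that group, so a call lost there can reflect the smaller group as well as a changed value.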
